A study of Homo sapiens with 8 samples.

Results

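FaDu is a human cell line from a squamous cell carcinoma of the hypopharynx. FaDu cells transfected with miR-99a-5p were compared with mock FaDu cells on 1 of the 8 two-colour oligonucleotide microarrays of the series, and the members described here are the genes measured on that array. The array carried probes for 43317 genes. For each gene the value is that of its brightest probe. In all, 15771 genes gave a signal well above background in both channels, while 19282 did so in at least 1 channel. RNA of the transfected cells was labelled with Cy5 and RNA of the mock cells with Cy3, and each value is the log2 ratio of the former over the latter.

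The sample labels describe the mock cells as not transfected, and the miRNA was delivered with a lipid reagent (Lipofectamine RNAiMAX). No array with a control miRNA in FaDu cells was analysed here, so a difference that any transfected RNA would make cannot be told apart from one that belongs to miR-99a-5p. All 8 arrays had the transfected cells in Cy5, so a difference between the dyes cannot be told apart from the transfection either. The other arrays held FaDu cells with miR-99a-3p, the prostate cancer line PC3 with miR-99a-3p, miR-100-3p or a strand of miR-150, and the pancreatic line PANC-1 with 1 of 2 siRNAs to FOXQ1, each against mock cells. With 1 array per condition there is no replicate and no test, so that the values describe 1 pair of RNA samples and their error is technical. In bulk RNA, fewer cells of a kind and less RNA per cell cannot be told apart.

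A miRNA guides Argonaute proteins to messages that pair with its seed, the bases near its 5′ end, and the paired message is destabilised or translated less. The 5p strand of the miR-99a hairpin is the more studied strand. It belongs to the miR-99/miR-100 family, an old family of animal miRNAs that is often found at low levels in squamous carcinomas and whose reported targets include MTOR and other members of the insulin and mTOR pathway. Because one seed serves many messages, a transfected miRNA usually lowers many genes by a little, and genes further downstream change with them.

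The mature sequences show what was delivered and which other miRNAs share its seed. The seed, bases 2 to 8, is in capitals, and the sequences are from RefSeq (GRCh38.p14). The miR-99a-5p sequence lies on chromosome 21 (chr21:16539101-16539122, plus strand), and its seed is found in 3 human mature miRNAs of that table, which are the first 3 shown.
hsa-miR-99a-5p: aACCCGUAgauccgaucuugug
hsa-miR-99b-5p: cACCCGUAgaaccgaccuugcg
hsa-miR-100-5p: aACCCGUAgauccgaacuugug
hsa-miR-99a-3p: cAAGCUCGcuucuaugggucug
The last line is the other strand of the same hairpin, delivered to FaDu cells on another array, with a different seed.

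The labelled cell type was checked by its markers. All 10 squamous and epithelial markers examined were well above background in both channels. Mock signals ran from 235.4 arbitrary units for TP63, the basal-cell transcription factor, to 91691.4 for the calcium-binding protein S100A2. The log2 ratios of the 10 markers lay between −0.35 (KRT6A, a keratin of squamous epithelium) and 0.25 (SFN, the epithelial 14-3-3 protein). Of 17 marker genes of fibroblasts, leukocytes, blood and endothelium with a probe, 8 were above background in mock cells and 2 in transfected cells. The part of other cells in the results was not tested. The summed signal of the 17 was 494.6 in mock and 661.0 in transfected cells, and CD14, a monocyte surface protein, was the brightest of them at 221.3 and 348.6. The fibroblast markers COL1A2, LUM and THY1 and the endothelial markers PECAM1 and KDR were at background in both. The fibroblast markers COL1A1 (30.9 units), DCN (38.0) and PDGFRB (18.9) and the endothelial marker CDH5 (40.8) were above background in mock cells only.

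The response was small. The median log2 ratio of the 15771 genes was 0.00, and their quartiles were −0.19 and 0.20. A log2 ratio below −1, a fall of more than 2-fold, was seen for 26 genes (0.165%), and one above 1 for 141 genes (0.894%). Of the genes past 2-fold, 15.6% were thus lower, a share that was 85.1% (938 lower, 164 higher) when a signal above background in 1 channel was enough. No gene lay below −2 and 2 lay above 2. Past 1.5-fold, 405 genes (2.57%) were lower and 796 (5.05%) higher, while 49.6% of the genes lay below 0 and 50.4% above. On the array of FaDu cells with miR-99a-3p, 903 of 16482 genes lay below −1 and 1265 above 1. Both arrays were set against mock FaDu cells, possibly of the same RNA, and the difference between the arrays was not tested.

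How precisely a ratio was read depended on signal. The scanner software gave the genes a median error of 0.21 on the log2 ratio. Among 282 probes printed at several spots and measured in both channels, the median SD between spots of this array was 0.07. The mock signals of the 2 FaDu arrays differed by a median of 0.08 on the log2 scale once their overall difference was removed, and 46 of 18215 genes differed by more than 1. The 3943 genes of lowest mean signal held 103 of the 141 genes above 1 and 15 of the 26 below −1, and had a median log2 ratio of 0.09. In the 3 groups of brighter genes, of nearly the same size, the median was −0.01 each, and in the brightest group 6 genes lay above 1 and 3 below −1. Cy5 reached the level called well above background at a lowest signal of 35.6 and Cy3 at 17.0, so that a dim gene passed in both channels more readily when its Cy5 signal was high.

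**Figure D1:**
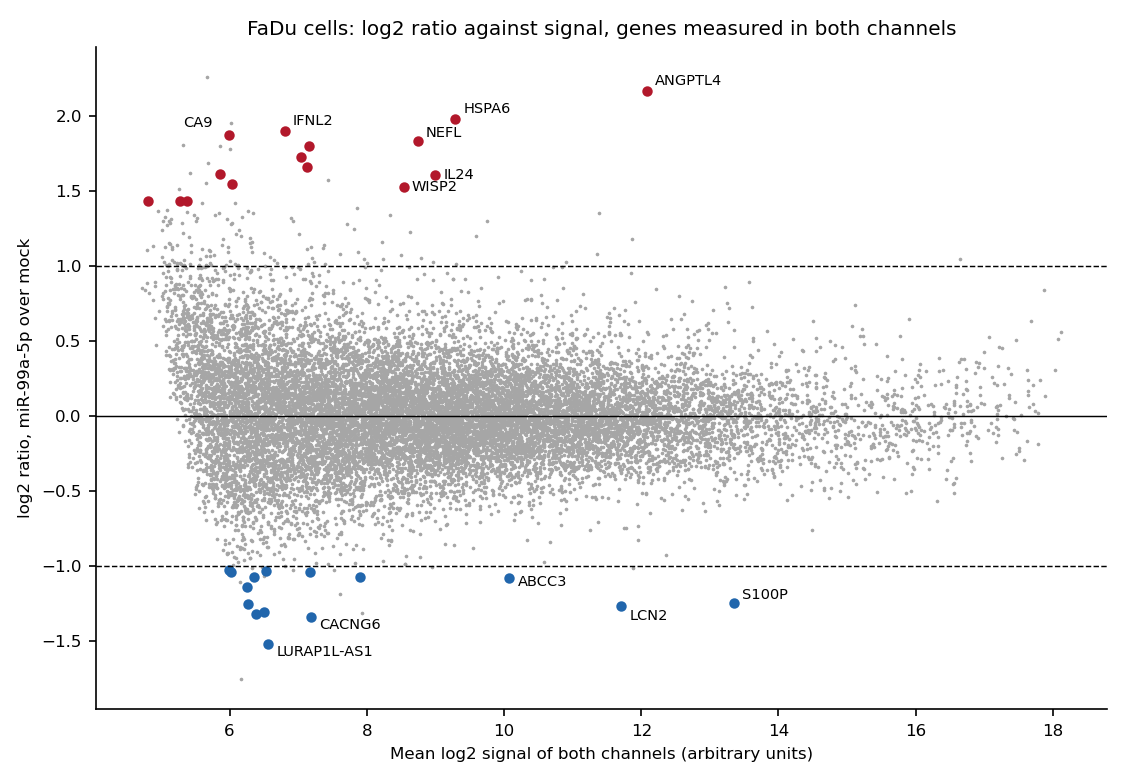
Log2 ratio of FaDu cells with miR-99a-5p over mock cells (y axis) against the mean log2 signal of both channels (x axis, arbitrary units) for the 15771 genes measured in both channels, 1 point per gene. Red and blue points are the 15 highest and the 15 lowest genes with a gene symbol, and dashed lines mark a log2 ratio of −1 and 1; ANGPTL4, LCN2 and S100P stand apart at high signal, while most genes past the lines are dim.

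In the 2 brighter of these 4 groups, 5 genes lay below −1. All 5 also lay below −1 on the miR-99a-3p array, beside 5.48% of all genes measured there. The 2 arrays may share mock RNA, and the overlap was not tested. LCN2, a secreted siderophore-binding protein of inflamed epithelium, had a signal of 5192.3 in mock and 2163.8 in transfected cells, a log2 ratio of −1.26 (spot error 0.23). S100P, a calcium-binding protein common in carcinomas, went from 16103.7 to 6800.7, a log2 ratio of −1.24. Both were bright and well clear of their spot errors. The stress-response regulator NUPR1 had a log2 ratio of −1.01, from 5354.5 to 2654.4. ABCC3, a drug and conjugate exporter, had a log2 ratio of −1.08 by its brighter probe and 0.04 by its other one, so its 2 probes disagreed. FAM83E lay just past −1, from 700.0 to 348.8.

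The dimmer genes among the 15 lowest included transcripts of several kinds. LURAP1L-AS1, an antisense transcript, had the lowest log2 ratio of a named gene, −1.52 (spot error 0.28). It gave 159.4 units in mock and 55.7 in transfected cells. CACNG6, a calcium channel subunit, followed at −1.34 and INHBE, an activin subunit, at −1.32. SMAD2, a transducer of TGF-beta signals, had a log2 ratio of −1.30 by the 1 of its 3 probes that was measured, from 141.7 to 57.4. RPS6KA2, a ribosomal S6 kinase of the MAP kinase pathway, was at −1.04 and −0.74 by its 2 measured probes, the same direction by both. ZC2HC1C (−1.25), CCND2-AS1 (−1.14), the mitochondrial enzyme ACADS (−1.08), BCDIN3D (−1.07), LINC01569 (−1.04), SP9 (−1.03) and the acetylcholine receptor subunit CHRNA10 (−1.03) completed the 15, and BCDIN3D, at 347.1 units in mock cells, was the brightest of these. BCDIN3D is a methyltransferase of small RNAs, and SP9 is a transcription factor.

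At the other end, ANGPTL4, a secreted inhibitor of lipoprotein lipase that is induced by hypoxia and fatty acids, had the highest log2 ratio of a named gene. Its signal was 2049.0 in mock and 9173.6 in transfected cells, a log2 ratio of 2.16 (spot error 0.29). HSPA6, a strictly inducible HSP70 chaperone, went from 313.9 to 1234.8, a log2 ratio of 1.98, and its 2 probes gave 1.62 and 1.98. IL24, a cytokine of the interleukin-10 family, had a log2 ratio of 1.61, from 292.9 to 891.7, and 1.75 by its other probe. HSPA6 and IL24 were the 2 genes past 2-fold by every one of several measured probes. Of 9 genes past 2-fold with more than 1 measured probe, the probes shared their sign for 8, ABCC3 being the exception.

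The other highest genes were of several kinds. IFNL2, a type III interferon, went from 57.9 to 215.2, a log2 ratio of 1.90, and CA9, the hypoxia-induced carbonic anhydrase, from 33.2 to 121.6, a log2 ratio of 1.87. The neurofilament genes NEFL and NEFM had log2 ratios of 1.83 and 1.43. PLAT, the tissue plasminogen activator, is printed at several spots, and its log2 ratio was 1.66 ± 0.19 (SD between spots of 1 array). INPP5D, an inositol phosphatase best known from blood cells, stood at 1.80, and EFEMP2, a fibulin of elastic fibres, at 1.73. The list ended with the phospholipase PLA2G2F (1.61), the ubiquitin ligase NEURL3 (1.54), the matricellular protein WISP2 (1.53), C9orf47 (1.43) and the muscle kinase MYLK2 (1.43). C9orf47, with 17.0 units in mock cells, lay at the limit of detection. The mock signals of C9orf47, CA9, PLA2G2F (33.3 units), NEFM (25.4) and MYLK2 (23.7) lay below 35.6, the lowest Cy5 signal called well above background. Such genes could be ranked only with a higher signal in Cy5.

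**Figure D2:**
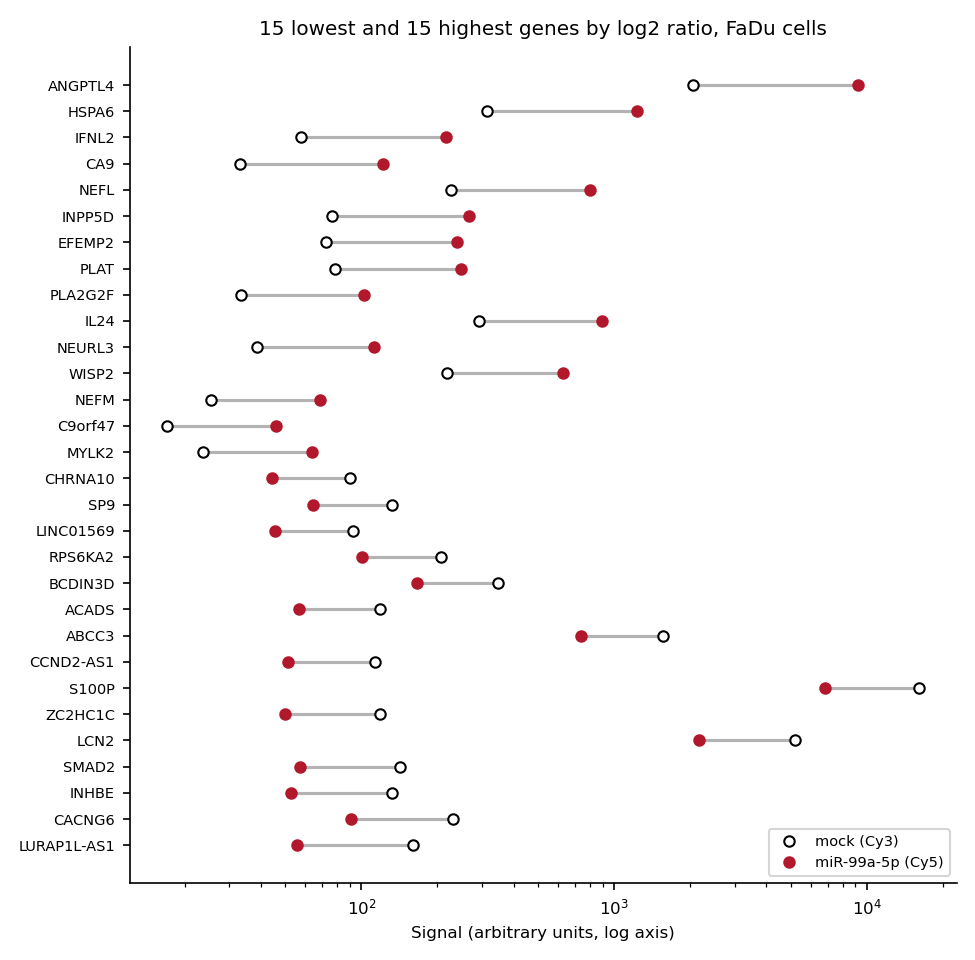
Signal in mock cells (Cy3, open circles) and in FaDu cells with miR-99a-5p (Cy5, filled circles) for the 15 lowest and the 15 highest genes by log2 ratio, in arbitrary units on a log axis. ANGPTL4 moved from 2049.0 to 9173.6 and S100P from 16103.7 to 6800.7, while BCDIN3D at 347.1 units, HSPA6 at 313.9 and most of the other genes were dimmer in mock cells.

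Several of these 30 genes had a different value on the miR-99a-3p array. HSPA6 was well above background in the mock cells of that array and not in the transfected ones, against 1234.8 units with miR-99a-5p. IFNL2 had a log2 ratio of −0.79 there and 1.90 here. CHRNA10 was at 0.76 there and −1.03 here, and BCDIN3D at 0.05, within its spot error, against −1.07 here. Others were further from 0 with miR-99a-3p, in the same direction. LCN2 was at −3.93, S100P at −2.63, RPS6KA2 at −2.26, PLAT at 3.52 and NEFM at 3.26. On the 6 arrays of PC3 and PANC-1 cells, ANGPTL4 ranged from −1.64 to 1.44 and S100P from −1.36 to 0.64.

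For 3491 genes only the mock signal was well above background, and for 20 only the signal of the transfected cells. A bound was then set with the higher of the dim signal and the lowest signal called well above background in that channel. Since the software makes this call spot by spot, the limit is not sharp. LINC01133, a long noncoding RNA of epithelia, was at least 2.92-fold lower in transfected cells (135.3 units in mock cells). The potassium channel KCNJ2 was at least 2.86-fold lower, the cholesterol exporter ABCG1 2.79-fold, the homeobox gene HOXD8 2.55-fold and FBF1, a protein of cilia, 2.49-fold. In the opposite direction, FOXP4-AS1 was at least 4.46-fold higher, RIBC2 2.87-fold, DCAF12L2 2.79-fold, LINC00460 2.79-fold and PPP2R2C, a phosphatase subunit, 2.70-fold. LINC01133, at 135.3 units in mock cells, was the brightest of these 10 genes in either channel.

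The seed pairs with the bases TACGGGT in a message, and genes whose 60-base probe itself holds these letters show the site where the array reads it. The match was in 26 of 58201 gene probes, 5 of them measured in both channels. Probes run in the sense of the message, as the share with AATAAA, the polyadenylation signal (7.85%), beside that with its reverse complement TTTATT (3.60%) shows. Below is a stretch of 30 bases around the match from each measured probe that is shown here, with the match in capitals.
TMEM87B: gttagtgaggaTACGGGTctggtttgatgt
ZZEF1: tttaatttgttttctTACGGGTttacgatt
FLJ37453: tgttttccagaTACGGGTttatagcccatt
ZNF845: tgtttctttaataaaaactgtTACGGGTtt
By the array's hg19 annotation, these probes lie at chr2:112875989-112876048 (TMEM87B), chr17:3907877-3907936 (ZZEF1), chr1:16160818-16160877 (FLJ37453) and chr19:53857741-53857800 (ZNF845).

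TMEM87B, a Golgi membrane protein, went from 250.1 to 176.3 units, a log2 ratio of −0.50 with a spot error of 0.22, and its other probe, without the match, gave −0.02. FLJ37453 was at −0.33 and ZZEF1, a zinc finger protein, at −0.23, while ZNF845 was at 0.13 with a spot error of 0.21. A lncRNA probe with the match stood at −0.09. The 5 had a median of −0.23, and 4 of 5 lay below 0, beside 10052 of all 20095 measured probes. The shorter match ACGGGT was in 141 probes, of which 48 were measured, with a median of −0.17, 33 of 48 below 0 and 2 of them (4.17%) below −0.58, beside 2.82% of all measured probes. All measured probes had a median of 0.00. With an A after the shorter match (ACGGGTA), 7 probes were measured, 6 of them below 0, and their median was −0.13. The 3 counts share probes. A probe covers 60 bases of a message, and sites elsewhere in the 3′ untranslated regions were not analysed here.

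Reported targets of miR-99a-5p as a list stood close to the other genes. Of 35 genes of the list, 20 were measured in both channels, and 13 of these lay below 0, with a median of −0.05. None of these 20 lay below −0.58 (1.5-fold), beside 2.57% of all genes. A target that fell below the Cy5 background is not among the 20, and 5 further targets were above background in mock cells only. BAZ2A, a subunit of a nucleolar chromatin remodelling complex, was lowest, from 422.9 to 316.5 units, a log2 ratio of −0.42 with a spot error of 0.21. SMARCD1, a SWI/SNF subunit, was at −0.26 and ZZEF1, which also carries the match shown above, at −0.23. These were the 3 genes whose value lay below 0 by more than the spot error.

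The kinase MTOR had a signal of 622.8 in mock and 553.2 in transfected cells, a log2 ratio of −0.17 (spot error 0.21), and RPTOR, its partner in mTOR complex 1, was also at −0.17. Both values were within the spot error. The receptor IGF1R was at 0.11, the receptor FGFR3 at 0.00 and the ISWI ATPase SMARCA5 at −0.04, with −0.14 by its other probe. PLK1, a mitotic kinase that is on the list, lay on the other side with a log2 ratio of 0.61, and 0.12 by its other probe. Of the 5 targets above background in mock cells only, ADCY1, an adenylyl cyclase (64.9 units in mock cells), was at least 1.72-fold lower in transfected cells. RAVER2 was at least 1.52-fold lower and TTC39A at least 1.37-fold, by the same rule as above. FZD8 and CLDN11 were too dim in mock cells (32.3 and 25.1 units) for a bound, and 10 of the 35 were above background in neither channel.

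**Figure D3:**
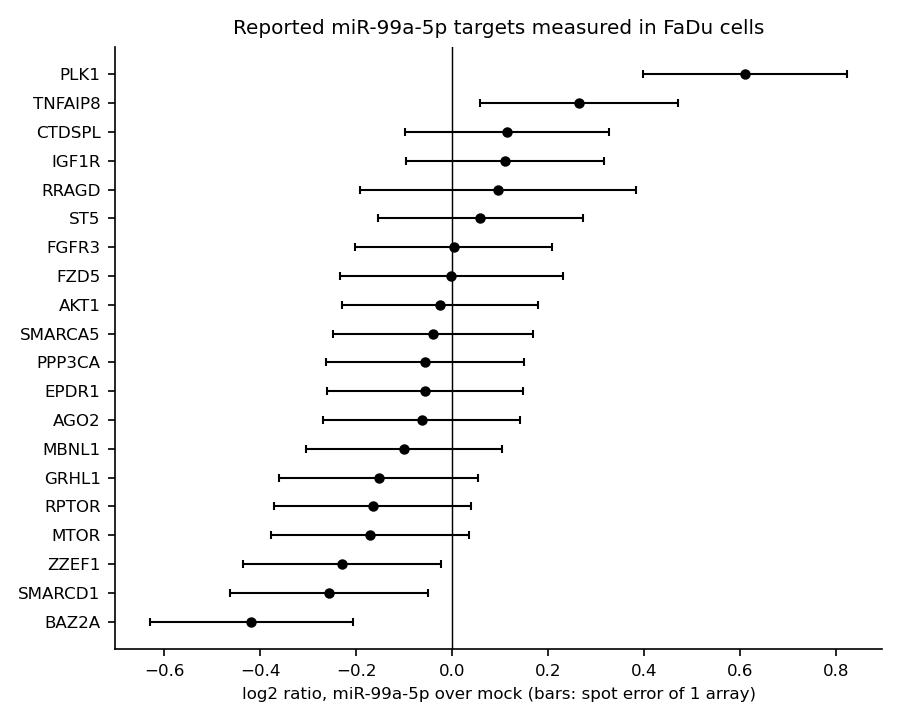
Log2 ratio of FaDu cells with miR-99a-5p over mock cells for the 20 reported targets measured in both channels. Points are 1 array, and bars show the error that the scanner software gave the spot; most bars cross 0, BAZ2A, SMARCD1 and ZZEF1 lie below 0 by more than the bar, and TNFAIP8 and PLK1 lie above.

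The insulin, AKT and mTOR pathway carries growth-factor and amino-acid signals to protein synthesis. Of its 34 measured genes, 22 lay below 0 and 12 above, with a median of −0.10. None lay past 1.5-fold in either direction, beside 2.57% of all genes below −0.58 and 5.05% above 0.58. A further 2 were above background in mock cells only. ULK1, the kinase that starts autophagy, was lowest at −0.55, and TSC1, a subunit of the mTOR brake, was at −0.51, with 0.22 by its other probe. RHEB, the GTPase that switches mTOR complex 1 on, was highest at 0.55. On the miR-99a-3p array the same list had a median of 0.09.

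The lowest list medians belonged to stress and detoxification programmes. Amino-acid shortage and misfolded proteins both raise the transcription factor ATF4, which turns on amino-acid synthesis and uptake. Of 29 genes of this response, 24 lay below 0 (82.8%), with a median of −0.26. NUPR1, given above, was the one member past 2-fold. Next came SLC3A2, the heavy chain of amino-acid exchangers, at −0.59, the stress cytokine GDF15 at −0.57 (99006.2 to 66833.7), PHGDH, the first enzyme of serine synthesis, at −0.53 and the pseudokinase TRIB3 at −0.51. VLDLR was highest at 0.24, and ATF4 itself stood at −0.15. Values on the miR-99a-3p array were lower, with a median of −1.72 for the list and a log2 ratio of −3.04 for TRIB3. On the arrays of PC3 and PANC-1 cells, the list median ranged from −0.47 to −0.002.

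Genes of the unfolded protein response, the chaperones and enzymes that fold secreted proteins in the endoplasmic reticulum, lay below 0 in 17 of 19 cases, with a median of −0.19. HYOU1, an endoplasmic chaperone, was lowest at −0.69, the only one of the 19 past 1.5-fold (5.26%, beside 2.57% of all genes below −0.58). CRELD2 (−0.51), the disulphide isomerase PDIA4 (−0.42) and HSPA5, the main chaperone of the compartment (−0.35), followed. SEL1L, an adaptor for the disposal of misfolded proteins, was at 0.39, and its 3 probes ranged from −0.06 to 0.39. Of 20 aminoacyl-tRNA synthetases, enzymes that load amino acids on tRNA, 14 lay below 0, from YARS at −0.47 to VARS at 0.21. The lists had medians of −1.72 and −0.66 on the miR-99a-3p array. On the arrays of PC3 and PANC-1 cells, the median of the unfolded protein list ranged from −0.62 to 0.13.

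NRF2 drives genes that detoxify electrophiles, among them the aldo-keto reductases. Of 34 measured members, 28 lay below 0, with a median of −0.22. Below −0.58 lay 3 (8.82%), beside 2.57% of all genes, and above 0.58 lay 2 (5.88%), beside 5.05%. ABCC3, whose probes disagreed, was lowest. AKR1C1, a reductase of steroids and lipid aldehydes, had a log2 ratio of −0.92 (7264.6 to 3830.8), with −1.02 to −0.21 over its 3 probes, and AKR1C3 was at −0.62. The AKR1C genes are close paralogs, and a probe may read more than one of them. The aldehyde dehydrogenase ALDH3A1 was at −0.56 and the light ferritin chain FTL at −0.48. Against this, the glutathione transferase GSTP1 stood at 0.63 and the carbonyl reductase CBR1 at 0.60. AKR1B10, another aldo-keto reductase, was at 0.30 and 0.38 by its 2 measured probes.

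Lysosomal and autophagy genes had a median of −0.16, with 30 of 40 below 0. LAMP3, a lysosomal membrane protein that is raised by stress, was lowest at −0.82 (5265.2 to 2974.4). SQSTM1, a receptor of autophagy, was at −0.56. UVRAG, a tether of autophagic vesicles, was highest at 0.53 with a dim signal of 46.9 in mock cells.

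**Figure D4:**
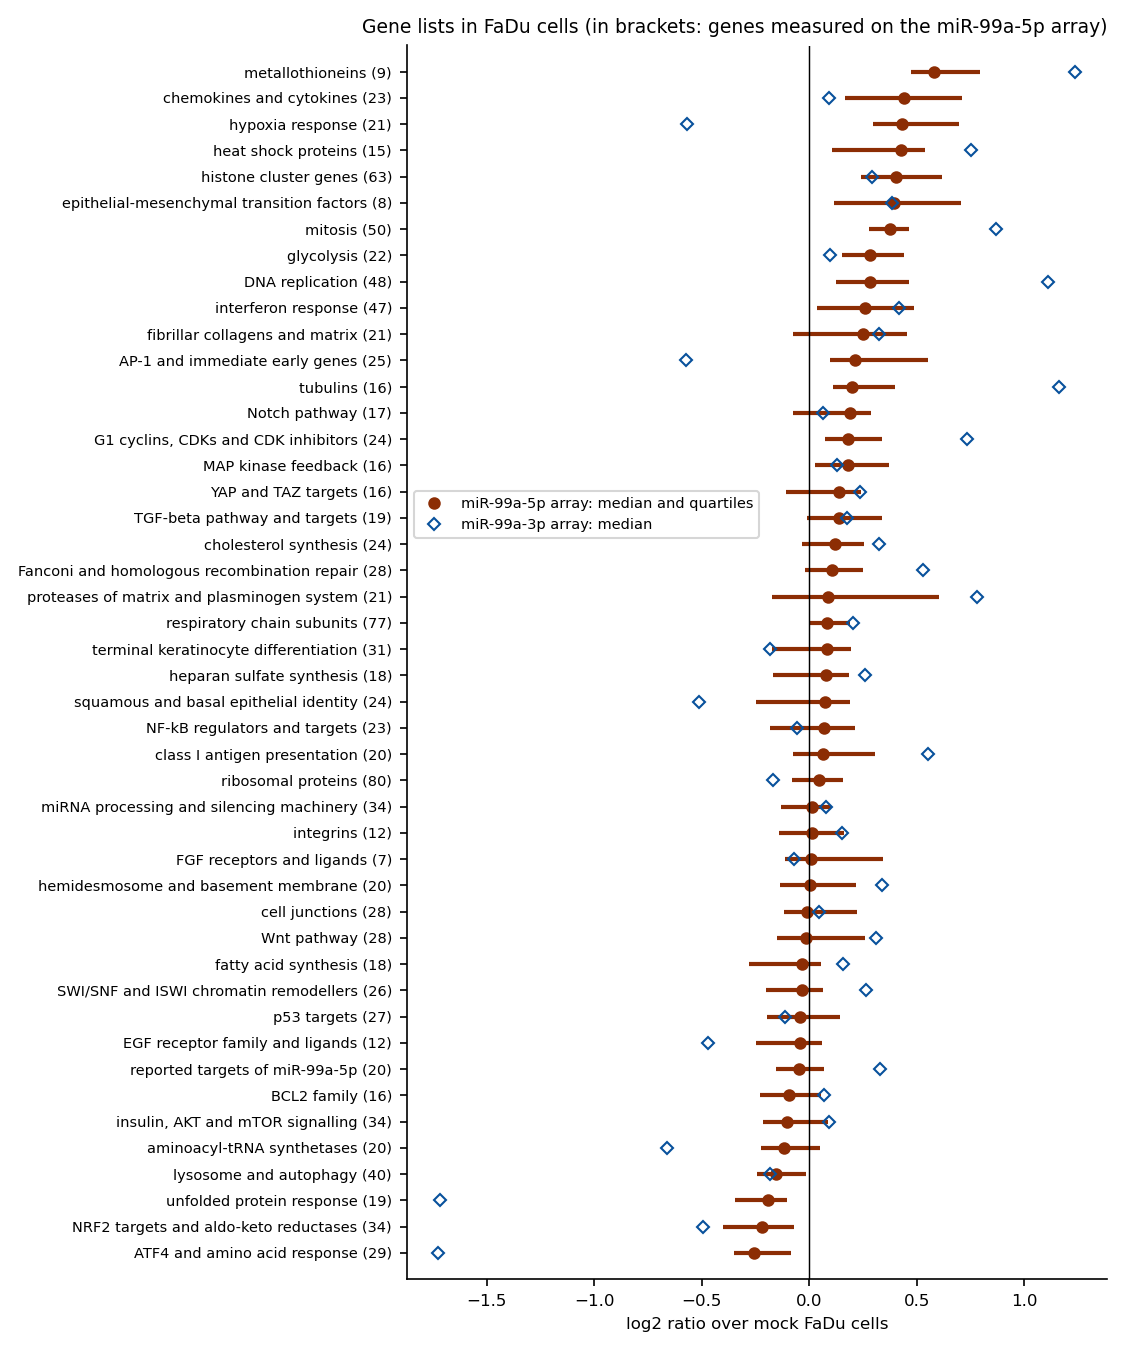
Median log2 ratio (filled circles) and quartiles (bars) of gene lists in FaDu cells with miR-99a-5p over mock cells, with the number of measured genes in brackets. Open diamonds give the median of the same list on the FaDu miR-99a-3p array, which may share the mock RNA. The ATF4, unfolded protein and NRF2 lists lie at the lower end of both. The hypoxia list is at 0.43 with miR-99a-5p and at −0.57 with miR-99a-3p.

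Hypoxia-response genes lay at the upper end. Their promoters are bound by the hypoxia-inducible factors, which raise glucose transport, glycolysis and vessel growth when oxygen is short. Of 21 measured members, 18 lay above 0 and 6 (28.6%) above 0.58, beside 5.05% of all genes, and the median was 0.43. ANGPTL4 and CA9 led the list, and EGLN3, an oxygen-sensing hydroxylase that feeds back on the factors, stood at 1.11 (95.4 to 206.5). CA9 had 33.2 units in mock cells, below the lowest Cy5 signal called well above background (35.6). It could be counted only with a higher signal in Cy5. The peptide hormone ADM was at 0.89 (8908.9 to 16525.0), ANKRD37 at 0.85 and HILPDA, a lipid droplet protein, at 0.70. VEGFA, the vessel growth factor, was lowest at −0.23, and the factor subunit HIF1A was at 0.11. With miR-99a-3p, ADM was at −1.67, VEGFA at −2.41 and the list median at −0.57.

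The glycolysis genes had a median of 0.28, with 19 of 22 above 0. PFKFB4, which makes the activator of phosphofructokinase, was highest at 0.83, and PDK1, which closes the entry of pyruvate into mitochondria, was at 0.73. LDHA, the lactate dehydrogenase subunit, was at 0.63 and 0.60 by 2 probes. The glucose transporter SLC2A1 was at 0.46. ALDOA at −0.07 and GAPDH at −0.01 were among the 3 members below 0, with PFKL lowest at −0.14. Genes of the respiratory chain, which uses the oxygen, had a median of 0.08.

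Promoters of CA9 and ANGPTL4 are shown because both genes lead the hypoxia list. The sequences cover the 250 bases before the transcription start (RefSeq, GRCh38.p14), CA9 at chr9:35673678-35673927 and ANGPTL4 at chr19:8363905-8364154, both on the plus strand. Capitals mark ACGTG or GCGTG, the core of the hypoxia-response element, on either strand.
CA9: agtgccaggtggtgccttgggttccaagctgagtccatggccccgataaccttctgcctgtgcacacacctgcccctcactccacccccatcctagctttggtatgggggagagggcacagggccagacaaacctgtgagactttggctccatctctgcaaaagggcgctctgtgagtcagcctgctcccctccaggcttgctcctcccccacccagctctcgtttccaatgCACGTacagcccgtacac
ANGPTL4: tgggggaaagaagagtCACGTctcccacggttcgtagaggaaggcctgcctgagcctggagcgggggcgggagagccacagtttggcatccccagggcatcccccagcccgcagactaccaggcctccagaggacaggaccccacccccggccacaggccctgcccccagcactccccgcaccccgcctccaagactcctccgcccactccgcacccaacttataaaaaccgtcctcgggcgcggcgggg
Each held 1 match, on the minus strand. A match was found for 14 of 17 measured hypoxia genes with an entry in the table, EGLN3, P4HA2 and MXI1 being the exceptions, and for 43.1% of all 27305 promoters. A match is a description of the letters and not a site of binding.

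Metallothioneins are small proteins that bind zinc and copper and are induced by metals and glucocorticoids. All 9 measured members lay above 0, with a median of 0.58, the highest median of a list of more than 2 genes. MT2A was at 1.04 (71267.8 to 146829.5), MT1X at 0.91, MT1F at 0.79 and MT3, the brain form, lowest at 0.11. The MT1 genes are near-identical copies, and their probes may read one another. On the miR-99a-3p array the list had a median of 1.24 and MT2A a log2 ratio of 2.26. The promoter of MT2A (chr16:56608334-56608583, GRCh38.p14, plus strand) is shown as the brightest gene past 2-fold, with the metal-response motifs TGCGCNC or TGCACNC, on either strand, in capitals.
MT2A: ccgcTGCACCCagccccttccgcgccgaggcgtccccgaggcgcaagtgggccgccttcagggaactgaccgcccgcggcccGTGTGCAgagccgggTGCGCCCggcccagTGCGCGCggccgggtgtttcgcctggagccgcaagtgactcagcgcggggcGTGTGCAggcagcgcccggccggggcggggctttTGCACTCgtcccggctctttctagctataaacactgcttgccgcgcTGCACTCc
It held 7 matches, and the 3 metallothionein promoters in the table each held at least 3. A match of this kind, whatever the number of matches, was in 24.7% of all promoters. The share of all promoters with 3 or more was not counted.

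Heat shock proteins, the chaperones of the cytosol and mitochondria, had a median of 0.43, with 13 of 15 above 0. A further 2 were above background in mock cells only and are not among the 15. HSPA1A and HSPA1B, 2 near-identical inducible HSP70 genes, were at 0.86 and 0.80, and HSP90AA1, the inducible HSP90, at 0.65. The 3 measured probes of HSP90AA1 ranged from 0.23 to 0.65. The constitutive HSPA8 was at −0.01 and the heat shock factors HSF1 and HSF2 were at 0.04 and −0.07. HSPA6, which was not on the list, lies on chromosome 1. Its promoter (chr1:161524290-161524539, GRCh38.p14, plus strand) is shown for the heat shock element, in capitals, which is 3 blocks of GAA and TTC in alternation with 2 bases between them.
HSPA6: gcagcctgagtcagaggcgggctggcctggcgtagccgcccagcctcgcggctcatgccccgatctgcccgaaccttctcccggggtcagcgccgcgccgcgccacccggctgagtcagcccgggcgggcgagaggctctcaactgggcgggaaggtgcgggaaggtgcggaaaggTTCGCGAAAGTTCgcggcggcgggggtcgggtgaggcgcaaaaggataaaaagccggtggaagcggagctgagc
The element was in 0.440% of all promoters and in 1 of the 14 measured heat shock genes with an entry, HSPA8. No match in the others says only that these letters were not in the 250 bases.

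Chemokines and cytokines, the secreted signals of inflamed epithelium, had a median of 0.44. Of 23 measured members, 22 lay above 0 and 8 (34.8%) above 0.58, beside 5.05% of all genes. A further 5 were above background in mock cells only and are not among the 23. IL24 led, followed by the neutrophil attractants CXCL3 at 1.12 and CXCL1 at 1.08 (1804.8 to 3807.6), which was at 0.78 by its other probe. The growth factor CSF2 at 0.92, the cytokine IL6 at 0.91, the cytokine TNF at 0.73 and the chemokine CXCL8 at 0.70 were next. IL1B, bright at 12050.9 units in mock cells, was at 0.12, and IL18 was lowest at −0.18. CXCL3 and IL6 went the other way with miR-99a-3p, at −2.08 and −0.94. Regulators and targets of NF-kB had a median of 0.07, with the inhibitors NFKBIA at 0.72 and TNFAIP3 at 0.69.

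Interferon-response genes, the antiviral effectors induced by type I and type III interferons, had a median of 0.26. Of 47 measured members, 37 lay above 0 and 11 (23.4%) above 0.58, beside 5.05% of all genes. None of the 47 lay below −0.58, beside 2.57% of all genes. A further 5 were above background in mock cells only and 1 in transfected cells only, and these are not among the 47. IFIT2 and IFIT3, which bind foreign RNA, were each at 0.91, IFIT1 at 0.81 (1124.3 to 1968.3), the GTPase MX1 at 0.78 and the RNA sensor OAS3 at 0.75. IFI35 was lowest at −0.40, and the transcription factor IRF7 was at −0.31. Beside IFNL2, its neighbour in the family IFNL1 was at 1.37 (47.9 to 123.5). The 2 IFNL genes are close paralogs. On the miR-99a-3p array IFIT3 was at 2.68 and MX1 at 2.02, with a list median of 0.42.

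**Figure D5:**
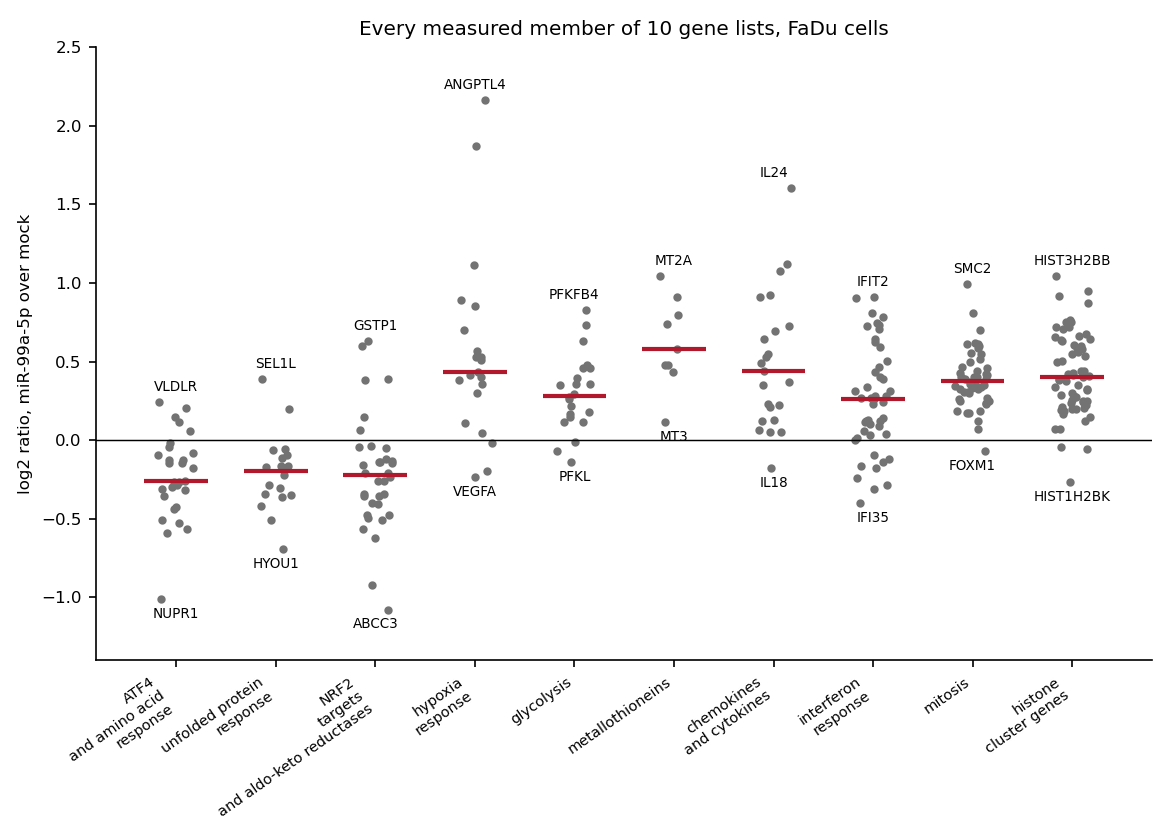
Log2 ratio of every measured member (1 point per gene) of 10 gene lists in FaDu cells with miR-99a-5p over mock cells, with the median of each list as a red line and its lowest and highest member named. Nearly all mitosis, histone, metallothionein and cytokine genes lie above 0, and most members of the ATF4, unfolded protein and NRF2 lists lie below.

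Genes of cell division lay above 0 almost throughout, by small amounts. Of 50 measured mitosis genes, 49 lay above 0, and their median was 0.37 with quartiles of 0.28 and 0.46. For 1 more, only the mock signal was above background. SMC2, a condensin subunit, was highest at 0.99 (177.8 to 354.2), with 0.24 by its other probe. HMMR, a spindle protein, was at 0.81, the cytokinesis protein ANLN at 0.70 and the proliferation antigen MKI67 at 0.62. The 3 measured probes of MKI67 ranged from 0.39 to 0.62. The transcription factor FOXM1 was the one member below 0, at −0.07. Above 0.58 lay 8 of 50 (16.0%), beside 5.05% of all genes.

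Of 48 DNA replication genes, 43 lay above 0, with a median of 0.28. RRM2, the regulated subunit of ribonucleotide reductase, was at 1.02 with a dim mock signal of 72.7. The polymerase subunit POLA1 was at 0.91, the thymidylate synthase TYMS at 0.77 and the sliding clamp PCNA at 0.48, while POLA2 was lowest at −0.20. By its other measured probe, PCNA was at 0.305. Tubulins, the subunits of microtubules, had a median of 0.20, with 15 of 16 above 0 and TUBA1C at 0.54. Another 1 was above background in mock cells only. With miR-99a-3p, the mitosis, replication and tubulin lists had medians of 0.87, 1.11 and 1.16. In PC3 cells with miR-99a-3p, the mitosis and replication lists had medians of −2.11 and −1.77.

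The histone cluster genes, whose messages mostly end without a poly(A) tail and are made during DNA synthesis, had a median of 0.40. Of 63 measured members, 60 lay above 0 and 19 (30.2%) above 0.58, beside 5.05% of all genes. For 1 more, only the mock signal was above background. HIST3H2BB was highest at 1.05 and HIST1H2BE was at 0.95, while HIST1H2BK was lowest at −0.27, with 0.63 by its other probe. Their coding sequences are close to one another, so that one probe may read several genes. On the miR-99a-3p array the median was 0.29.

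Immediate early genes, which answer growth signals within minutes, had a median of 0.21, with 22 of 25 above 0. A further 2 were above background in mock cells only and are not among the 25. The transcription factors EGR2 and FOS were at 0.75 and 0.72 (FOS from 2432.8 to 4010.6), and JUND was lowest at −0.73. On the miR-99a-3p array FOS was at −2.06 and EGR2 at −1.13. Among feedback inhibitors of the MAP kinases, SPRY1 was highest at 1.01, with 0.10 by its other probe, and PHLDA1 lowest at −0.48.

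Genes of mesenchymal cells and of the matrix were measured in part in this epithelial line. Of 35 fibrillar collagen and matrix genes, 21 were measured in both channels, with a median of 0.25 and 15 above 0. A further 3 were above background in mock cells only. The intermediate filament VIM was at 1.00 from 43.5 units, SNAI1, a repressor of epithelial genes, at 0.87 (213.4 to 390.0) and TWIST1 lowest at −0.17. Of 8 measured genes of the transition list, 7 lay above 0, and 1 more was above background in mock cells only. Of 21 measured proteases and inhibitors, 11 lay above 0. PLAT was highest, the protease inhibitor TIMP3 was at 1.18 from 39.5 units and the matrix protease MMP3 at 0.95, while MMP14 and MMP15, both membrane-bound, were at −0.51. In the TGF-beta list, the activin subunit INHBA at 1.32 and the inhibitor of differentiation ID2 at 1.15 lay opposite SMAD2, and the median was 0.14. In that list, 3 more genes were above background in mock cells only.

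Keratins and the squamous programme differed among members, without a common direction. KRT16, a keratin of stressed and activated epithelium, was at −0.99 (529.6 to 267.2), KRT15, a keratin of basal cells, at 0.63 (2764.6 to 4288.9) and LY6D at 0.75. The list of squamous identity had a median of 0.07 and the 24 keratin genes one of 0.00. With miR-99a-3p the squamous list was at −0.51, and KRT6A at −2.83 against −0.35 here. Of the S100 genes, S100P was lowest at −1.24 and S100A5 highest at 1.01.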

How the data were processed

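RNA of FaDu cells with miR-99a-5p (Cy5) and of mock cells (Cy3) was hybridised to 1 Agilent array, 1 of 8 on a slide. The authors' scanner software (Agilent Feature Extraction 10.7.3.1) corrected the background and normalized the dyes within the array. The deposited intensities and the deposited log10 ratios come from that run, and the values deposited for the series equal them. Outlier flags removed 136 of 60901 gene spots, and there was no saturation. The share of spots well above background was 45.4% in Cy3 and 37.2% in Cy5. Spike-in ratios had a slope of 0.882 on the expected log ratio, so ratios are compressed.

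Log10 ratios were multiplied by 3.3219, spots of a probe averaged, and genes taken as their brightest probe, by log2 signal averaged over all channels and arrays. Ranked genes were well above background in both channels. The median of a list on another array covers the members that passed this filter on that array. Genes named are the 15 lowest and 15 highest with a gene symbol, the 5 highest bounds in each direction, members of each list past 2-fold or at its ends, reported targets past 1.5-fold, and MTOR, IGF1R, FGFR3 and SMARCA5; a few genes under this rule are not reported here. Further members are named as examples, chosen after their values were seen. Of the 15771 genes, 11791 carry a current RefSeq symbol and 859 a synonym of 1 symbol. The array's own names are used. The 42 lists of symbols and 26 lists by name pattern, and the genes described, were chosen with earlier results of these data known.

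No test was run. Alternatives used limma 3.58.1 (R 4.3.3) with normexp at an offset of 50 and loess, Aquantile between arrays, other filters and other probes. The limma step was tested on 62976 simulated spots with known changes at 200. It gave the right sign for 100% of these and a slope of 0.927 on the known change. Python 3.11.15 with pandas 2.3.3 and numpy 2.4.6 served for the rest. The filter on a mean signal of 100 was chosen after seeing the data.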

Additional observations from a re-analysis of the deposited data

How the results depend on the processing

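No paired analysis was possible because only 1 array was made per condition. All arrays lay on 1 slide, which therefore gave no block. The number of arrays limits the precision, and the limit of detection in Cy5 bounds what can be read of decreases. The counts below −1 and above 1 (26 and 141) were the values that depended most on the processing. With limma's normexp correction and loess they were 4 and 20, and with the mean of the 2 FaDu mock channels as control 5 and 27. Both settings add an offset of 50 to the signal, which draws the ratios of dim genes to 0. Genes above background in at least 1 channel gave 938 and 164, which turned the split from 15.6% below 0 to 85.1%, and no filter gave 1556 and 1988 (43.9%). A mean signal of at least 100, a limit chosen after seeing the data, gave 12 and 45. At 1.5-fold the counts were 405 and 796, and at 4-fold 0 and 2. The series values, the mean over probes, the brightest probe on this array and outlier spots kept moved neither count by over 1.5 times.

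Under these settings 692 list medians moved by less than the median spot error of the list, and 8 moved by more. These were microRNA host genes (−0.14) and collagen genes (−0.093) with at least 1 channel above background, protocadherins (0.00) and epithelial-mesenchymal transition factors (0.11) without a filter, and the 2 measured markers of other cell types (0.43 by limma, 0.45 with both mocks, −0.12 with 1 channel and 0.00 without a filter, against 0.89). None of the named genes changed sign after passing 2-fold, and 247 of their values moved by less than the spot error and 53 by more, 26 and 25 of them under the 2 settings with an offset. The log2 ratio of ANGPTL4 was 2.04 and 2.02 there, and the log2 ratio of CA9 was 0.79 and 0.71. By the mean over its probes, the log2 ratio of ABCC3 was −0.52.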

Other observations

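Among genes measured in both channels, noncoding transcripts lay above 0 more often than coding ones, a difference that was not tested. The 11304 genes of RefSeq protein-coding transcripts measured in both channels had a median log2 ratio of −0.01, the 1159 of RefSeq noncoding transcripts 0.05, the 162 named LINC 0.04 and the 948 named lnc- 0.06, beside 0.00 for all genes. Above 0.58 lay 4.14% of the protein-coding, 6.73% of the RefSeq noncoding, 10.5% of the LINC and 9.18% of the lnc- genes, and below −0.58 lay 2.27%, 3.62%, 1.23% and 4.75%. Genes above background in mock cells only are not in these counts. They were 1240 protein-coding, 433 RefSeq noncoding, 74 LINC and 747 lnc- genes. The 3943 genes of lowest signal among all genes had a median of 0.09, and the part of dim signal in the difference was not tested. Of the 26 genes below −1, 20 carried a gene symbol, and of the 141 above 1, 88 did. MIR99AHG, the host transcript of the miR-99a hairpin, went from 96.4 to 52.1 units, a log2 ratio of −0.89 with a spot error of 0.30, and MIR100HG, the host of the seed-sharing miR-100, stood at 0.74 (spot error 0.27), from 63.1 to 105.1 units. On the miR-99a-3p array they were at −0.26 and 0.99. Probes of host transcripts do not read the delivered mature miRNA.

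Large housekeeping families stayed near 0. The 80 ribosomal protein genes had a median of 0.05, the 77 mitochondrial ribosomal protein genes −0.03, the 37 proteasome genes −0.01 and the 34 genes of miRNA processing and silencing 0.01. Of 351 zinc finger genes named ZNF, 12 lay below −0.58 (3.42%, beside 2.57% of all genes) and 7 above 0.58 (1.99%, beside 5.05%), with a median of −0.02. The 22 HOX genes measured here had a median of 0.01, and the 27 measured on the miR-99a-3p array had one of 1.05 there. The 2 medians cover different sets of genes, 5 HOX genes were above background here in mock cells only, and the difference was not tested.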
